A study of Homo sapiens with 4 samples.

Results

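The genes that license replication origins and build the DNA replication fork were examined in U251 cells, an established human glioblastoma line, after knockdown of the arginine methyltransferase PRMT3. The members were 56 genes chosen by name from the gene count table, out of 15575 genes in all, and every one of the 56 passed the filter on low counts. They were grouped by role into origin licensing (9 genes), helicase (16), polymerases (9), clamp, loader and strand processing (13), fork protection (4) and chromatin assembly (5). The study asked how loss of PRMT3 alters the transcriptome of glioblastoma cells. RNA was sequenced from 2 Ctrl libraries, from cells given a lentiviral control shRNA (pGreen in the labels), and from 2 PRMT3-KD libraries, from cells given a lentiviral PRMT3 shRNA, at 72 h. The sources used here do not say which PRMT3 shRNA these libraries received. The Ctrl libraries held 27405629 and 27221921 counts, and the PRMT3-KD libraries held 24804250 and 29756313. No label says that the libraries of a group came from separate cultures, so p-values measure only the spread between these libraries.

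Before S phase, the origin recognition complex, CDC6 and CDT1 load the MCM2-7 ring onto DNA, which licenses each origin to fire once per cycle. The kinase CDC7 with DBF4, together with CDC45 and the GINS complex, turns the loaded ring into an active helicase, and DNA polymerases, the sliding clamp PCNA and its loader then copy both strands. Many of these genes are transcribed under E2F factors as cells leave G1, so their RNA is widely used as a marker of proliferating tumor cells.

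PRMT3 itself (ENSG00000185238, chr11:20409104-20530884, GRCh37) had 535 counts in each Ctrl library, but only 77 (library 1) and 45 (library 2) after PRMT3-KD. In CPM, counts scaled by library size and TMM factor, it was at 19.3 and 19.5 in Ctrl and at 3.03 and 1.58 in PRMT3-KD libraries. Both PRMT3-KD libraries lay far below both Ctrl libraries, and library 2 was the lower. Its log2 fold change was -3.08, with a standard error (SE) of 0.314. By the quasi-likelihood test of edgeR, adjusted after Benjamini and Hochberg, p was 0.0177. Without Ctrl library 1 or Ctrl library 2 its adjusted p was 0.0963 or 0.0512 in the same edgeR test.

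Glioma and astroglial markers differed widely in level. Of the 10 markers listed, 9 were analysed (OLIG2 was not analysed here), and their summed level was 8608 and 8589 CPM in Ctrl and 7478 and 7925 CPM in PRMT3-KD libraries. VIM was the most abundant, at 5399, 5389, 4453 and 5092 CPM in Ctrl 1, Ctrl 2, PRMT3-KD 1 and PRMT3-KD 2. CD44 was at 1955 and 1958 CPM and NES at 786 and 779 CPM in Ctrl. VIM, CD44 and NES made up most of the summed level, so it says little about the other markers. SOX9, the only marker of this list that was called, was at 244 and 244 CPM in Ctrl and at 146 and 164 CPM in PRMT3-KD libraries, a log2 fold change of -0.65 (edgeR adjusted p = 0.0215). Without Ctrl library 1 or 2 its edgeR adjusted p was 0.259 or 0.223, and without PRMT3-KD library 1 its log2 fold change was -0.57, so all 3 fits ended the call. FABP7 was at 34.7 and 33.5 CPM in Ctrl and at 14.7 and 23.9 CPM in PRMT3-KD libraries, and was not called. Of the 8 markers tested, only 1, CD44, was lower in PRMT3-KD library 2 than in library 1. The astrocyte filament gene GFAP had 363 and 392 counts in Ctrl but 32 and 153 counts in PRMT3-KD libraries, and AQP4 had at most 1 count in any library. S100B was at only 2.02 and 2.14 CPM in Ctrl and at 1.93 and 2.82 CPM in PRMT3-KD libraries. Of 12 markers of immune, endothelial, epithelial, neuronal and oligodendrocyte cells, 7 were analysed, with a summed level of 18.1, 19.0, 21.2 and 42.6 CPM in the same order. PTPRC, CDH1 and MOG each had at most 7 counts in a library. The neuronal gene SYT1 was the most abundant in all but PRMT3-KD library 2, at 10.03 and 11.1 CPM in Ctrl and at 14.3 and 14.0 CPM in PRMT3-KD libraries. The endothelial gene CDH5 was the most abundant in PRMT3-KD library 2, at 25.4 CPM against 5.05, 5.31 and 5.08 CPM in the other libraries. VWF, also endothelial, was at 2.35 and 2.07 CPM in Ctrl and at 1.18 and 2.46 CPM in PRMT3-KD libraries. The part of these transcripts in the results was not tested.

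Most of the replication genes had lower values in both PRMT3-KD libraries, and a minority were called. Of the 56 members, 12 were called lower, that is, over 1.5-fold lower with an edgeR adjusted p below 0.05, where 5.97% of the 13172 genes tested were called lower. The 12 were MCM4, MCM6, MCM7, MCM8, MCM10, CDC7, POLA1, FEN1, TIMELESS, UHRF1, CHAF1A and DNMT1, which is 21.4% of the members. By edgeR, 0 members were called higher, where 4.97% of all genes tested were; DESeq2 also called 0, and 1 member, ORC4, was above 0 at an unadjusted p under 0.05. The median log2 fold change was -0.64 over the members and 0.01 over all genes tested, and 54 of the 56 members lay below 0. Both PRMT3-KD libraries were below both Ctrl libraries for 47 members, a pattern found in 33.8% of all genes tested. Fewer cells in S phase and less of these RNAs per cell cannot be told apart in bulk RNA.

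The size of the decrease differed between the PRMT3-KD libraries. The median log2 difference from the Ctrl mean was -0.43 in library 1 and -0.94 in library 2, and each of the 56 members was lower in library 2, as were 53.6% of all genes tested. In library 2, 23 members stood over 2-fold below the Ctrl mean, and in library 1 only FEN1 did. Over all genes tested the median log2 difference was -0.0002 in library 1 and -0.008 in library 2. The share of all genes past the 2-fold limit is not given here. PRMT3-KD library 2 also stood apart in composition, with 8.63% of its counts in its 10 most abundant genes. This share was 6.56% in PRMT3-KD library 1 and 6.10% and 6.16% in the Ctrl libraries. Its part in the larger decrease was not tested. The Ctrl libraries lay closer together. Over the members, the chi-square between the Ctrl libraries was 1.22 per degree of freedom (p = 0.130, chi-square test on counts), where counting error alone gives 1. Over 13709 genes it was 1.42 (p = 1.1e-210, chi-square test on counts), so the Ctrl libraries differed by more than counting error. Between the PRMT3-KD libraries it was 132 over the members and 63.6 over 13670 genes. As a coefficient of variation beyond counting error, the spread was 0.0105 for Ctrl and 0.210 for PRMT3-KD, while the edgeR test uses 1 dispersion for both groups. Whether both PRMT3-KD libraries received the same shRNA is not given, so a difference by hairpin and a difference between replicates cannot be told apart.

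The number of members called differed between tests and with the libraries used. DESeq2 called 33 members lower and limma-voom with a weight for each group called 34, and both counts held all 12 members named above. Of all genes tested, these fits called 7.53% and 6.85% lower. A further 15 members were over 1.5-fold lower with an adjusted p between 0.05 and 0.1 in edgeR. Almost all genes called, members or not, lost their edgeR call without Ctrl library 1 or without Ctrl library 2. Of the members edgeR called none in these fits, so the edgeR call of each of the 12 members needs both Ctrl libraries. Without PRMT3-KD library 1 it called 45 and without PRMT3-KD library 2 it called 18, in fits where the spread came from the Ctrl libraries alone and which called 12.6% and 12.5% of all genes tested lower. Without PRMT3-KD library 2, DNMT1 lost its call, at a log2 fold change of -0.54. A member that edgeR did not call is therefore not shown to be unchanged.

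**Figure D1:**
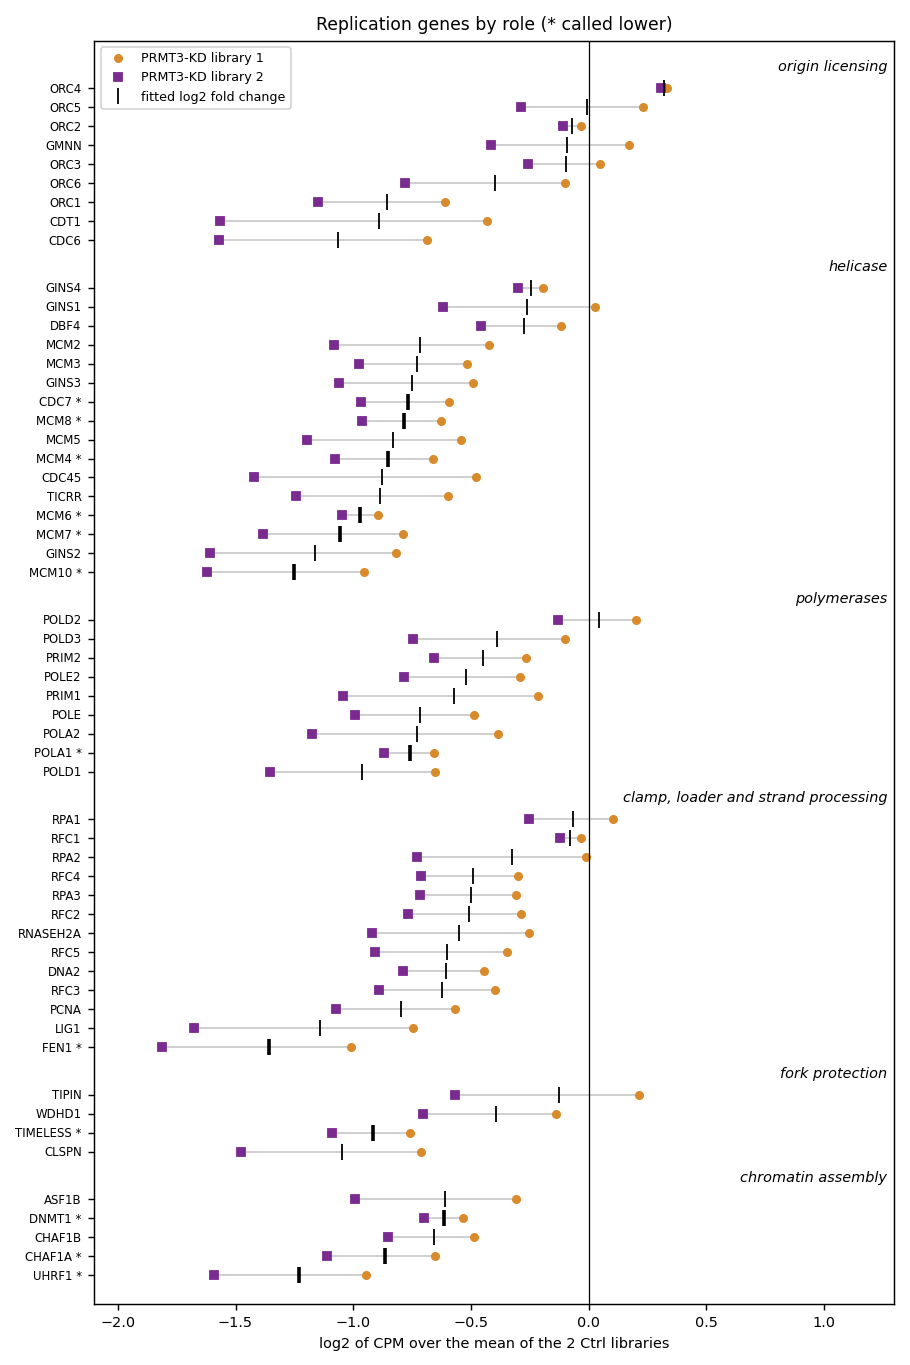
Log2 of CPM over the mean of the 2 Ctrl libraries for each of the 56 replication genes, by role, with a circle for PRMT3-KD library 1, a square for library 2 and a bar for the fitted log2 fold change; asterisks mark the 12 genes called lower. The square lies left of the circle for all 56 genes, and ORC2, ORC3, ORC5, GMNN, POLD2, RPA1, RFC1 and TIPIN have bars close to 0.

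In the origin licensing group, 0 of 9 genes were called by edgeR, where 5.97% of all genes tested were called lower. DESeq2 called CDC6, ORC1 and CDT1 of this group lower, where it called 7.53% of all genes tested lower. Both PRMT3-KD libraries were below both Ctrl libraries for 5 of these 9 genes, against 33.8% of all genes tested. They were above for 1, against 33.3% of all genes tested, and the groups overlapped for 3. CDC6, the ATPase that recruits CDT1 and the MCM ring, was at 83.0 and 82.3 CPM in Ctrl and at 51.4 and 27.8 CPM in PRMT3-KD libraries. Its groups did not overlap, and library 2 was at 33.6% of the Ctrl mean. The log2 fold change was -1.06 (SE 0.303, edgeR adjusted p = 0.0789), which missed the threshold, while DESeq2 gave an adjusted p of 0.00147. ORC1, the subunit of the recognition complex that comes and goes with the cycle, was at 33.4 and 31.1 CPM in Ctrl and at 21.1 and 14.5 CPM in PRMT3-KD libraries. All PRMT3-KD values were again below all Ctrl values, with a log2 fold change of -0.86 (adjusted p = 0.0547, edgeR, and 0.0027, DESeq2). CDT1 had a log2 fold change of -0.89 (adjusted p = 0.171, edgeR, and 0.0337, DESeq2). ORC6 had -0.40 (adjusted p = 0.291, edgeR, and 0.251, DESeq2). Without PRMT3-KD library 1 the log2 fold changes of CDT1 and ORC6 were -1.57 and -0.78, and without library 2 they were -0.43 and -0.10.

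The core subunits ORC2 to ORC5 gave other values. ORC4 had the highest log2 fold change of all members, with 27.1 and 26.3 CPM in Ctrl and 33.7 and 33.1 CPM in PRMT3-KD libraries. It was the only member with both PRMT3-KD libraries above both Ctrl libraries, as were 33.3% of all genes tested, at a log2 fold change of 0.32 (SE 0.0844, edgeR adjusted p = 0.0671). Exons of ORC4 share 431 bases with ACVR2A on the opposite strand, 4.83% of its exon length. ORC2 had a log2 fold change of -0.07. ORC5 was at 31.5 and 31.2 CPM in Ctrl and at 36.8 and 25.7 CPM in PRMT3-KD libraries. Its PRMT3-KD values lay on both sides of Ctrl, and its log2 fold change of -0.01 was 0.23 without PRMT3-KD library 2 and -0.29 without library 1. ORC3 likewise had -0.10, with 0.0462 without PRMT3-KD library 2 and -0.26 without library 1. The inhibitor of CDT1, geminin (GMNN), was at 54.9 and 53.4 CPM in Ctrl and at 61.0 and 40.7 CPM in PRMT3-KD libraries, so the PRMT3-KD values lay on both sides of Ctrl. Summed over ORC2 to ORC5, the level was 145 and 140 CPM in Ctrl and 155 and 133 CPM in PRMT3-KD libraries. Summed over ORC1, ORC6, CDC6 and CDT1 it was 237 and 232 CPM in Ctrl and 173 and 97.2 CPM in PRMT3-KD libraries. This split was made after the values were seen, and the difference between both sums was not tested.

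The helicase group held 6 of the 12 called genes. That is 37.5% of the group by edgeR, where 5.97% of all genes tested were called lower. DESeq2 also called MCM2, MCM3, MCM5, CDC45, GINS2, GINS3 and TICRR lower, where it called 7.53% of all genes tested lower. All 16 genes were below 0, with a median log2 fold change of -0.81. MCM7 (ENSG00000166508, chr7:99689856-99699563, GRCh37), a subunit of the ring, was at 389 and 388 CPM in Ctrl and at 225 and 149 CPM in PRMT3-KD libraries. The Ctrl values were almost equal and both PRMT3-KD values lay well below them. Its log2 fold change was -1.06 (SE 0.211, edgeR adjusted p = 0.0409), and on library totals only the adjusted p was 0.0538. Exons of MCM7 share 392 bases with AP4M1 on the opposite strand, 7.90% of its exon length, and whether the counting used strand is not given in the sources used here.

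MCM6 (ENSG00000076003, chr2:136597196-136634013, GRCh37) was at 84.0 and 84.5 CPM in Ctrl and at 45.3 and 40.8 CPM in PRMT3-KD libraries. Among the called members its PRMT3-KD libraries were the closest relative to the decrease, and its adjusted p was the lowest, at 0.0154 (edgeR) for a log2 fold change of -0.97. MCM4 was at 235 and 237 CPM in Ctrl and at 149 and 112 CPM in PRMT3-KD libraries, a log2 fold change of -0.85 (adjusted p = 0.0348, edgeR). MCM3 was at 271 and 276 CPM in Ctrl and at 191 and 139 CPM in PRMT3-KD libraries. It did not overlap between groups either, but its adjusted p was 0.0526 in edgeR and 0.00131 in DESeq2. MCM2 and MCM5 had log2 fold changes of -0.72 and -0.83 and edgeR adjusted p of 0.1002 and 0.0731. In DESeq2 their adjusted p was 0.0128 and 0.00267. All 6 subunits of the ring were therefore below 0, with a range from -1.06 to -0.72. Their summed level was 1278 and 1279 CPM in Ctrl and 823 and 576 CPM in PRMT3-KD libraries.

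MCM10, which binds the active helicase, had the lowest log2 fold change of the group. It was at 21.0 and 20.9 CPM in Ctrl and at 10.8 and 6.83 CPM in PRMT3-KD libraries, a log2 fold change of -1.25 (SE 0.240, edgeR adjusted p = 0.0377). MCM8, which works with MCM9 in repair of broken forks, was at 64.2 and 60.6 CPM in Ctrl and at 40.4 and 32.0 CPM in PRMT3-KD libraries, a log2 fold change of -0.79 (adjusted p = 0.0326, edgeR). For both genes every PRMT3-KD value was below every Ctrl value. The kinase CDC7 was at 21.3 and 19.6 CPM in Ctrl and at 13.5 and 10.45 CPM in PRMT3-KD libraries, a log2 fold change of -0.77 (adjusted p = 0.0447, edgeR). Its activator DBF4 had a log2 fold change of -0.28 (adjusted p = 0.217, edgeR). The adjusted p of CDC7 was 0.0635 on library totals only.

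The 4 GINS subunits, which join CDC45 and the MCM ring, spread widely. GINS2 was at 46.7 and 47.9 CPM in Ctrl and at 26.8 and 15.5 CPM in PRMT3-KD libraries, a log2 fold change of -1.16 that missed the threshold in edgeR (adjusted p = 0.0548) and passed in DESeq2 (adjusted p = 0.00026). GINS4, the member of the group nearest to 0, was at 65.8 and 67.2 CPM in Ctrl and at 58.1 and 54.0 CPM in PRMT3-KD libraries, a log2 fold change of -0.25 (adjusted p = 0.101, edgeR). Both genes were lower in both PRMT3-KD libraries, by different amounts. GINS3 and GINS1 had log2 fold changes of -0.75 and -0.26, and GINS1 was at 21.0 CPM in PRMT3-KD library 1, above both Ctrl values. CDC45 and TICRR, which brings factors to the loaded ring, had log2 fold changes of -0.88 each and edgeR adjusted p of 0.130 and 0.0646. In DESeq2 their adjusted p was 0.0216 and 0.00237.

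**Figure D2:**
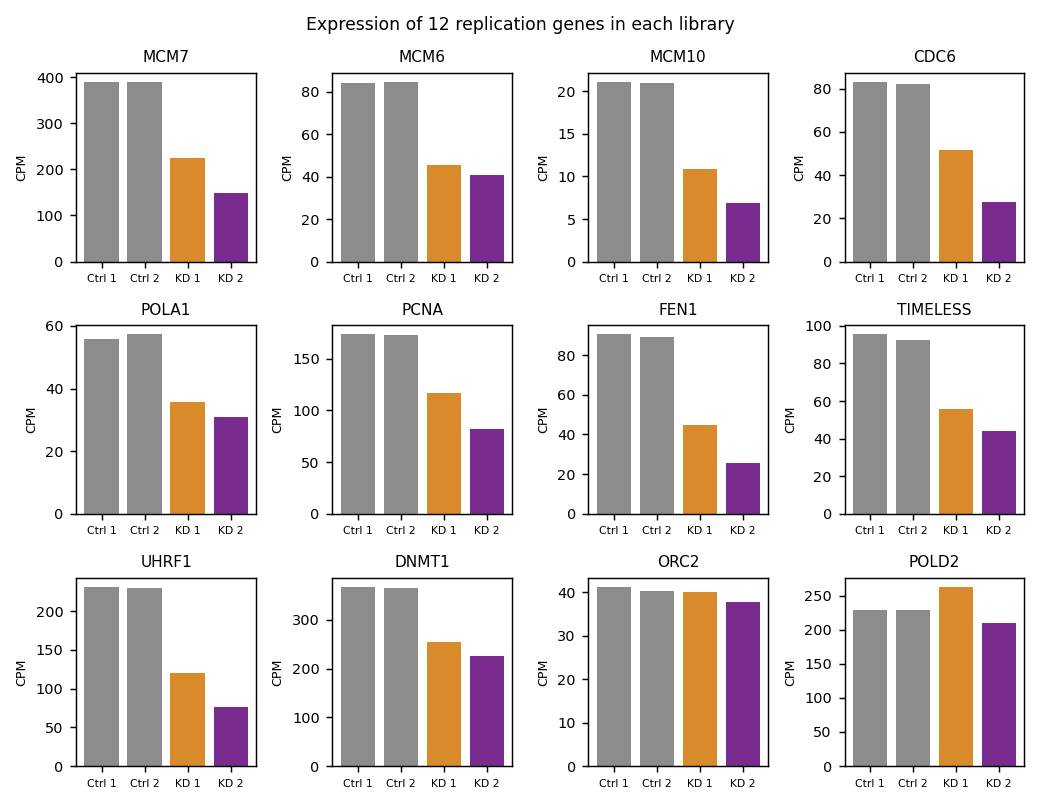
CPM of 12 replication genes in each library, with Ctrl libraries in grey, PRMT3-KD library 1 in orange and library 2 in purple; each bar is 1 library and each axis starts at 0. MCM7 goes from 389 and 388 CPM in Ctrl to 225 and 149 CPM, whereas ORC2 and POLD2 stay near their Ctrl values.

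Among the polymerases, 1 of 9 genes was called by edgeR, or 11.1%, where 5.97% of all genes tested were called lower. DESeq2 also called POLA2, POLD1 and POLE lower, where it called 7.53% of all genes tested lower. POLA1 (ENSG00000101868, chrX:24711990-25015103, GRCh37), the catalytic subunit of the polymerase that starts each new strand, was at 55.7 and 57.3 CPM in Ctrl and at 35.9 and 30.9 CPM in PRMT3-KD libraries. Both PRMT3-KD libraries were lower by a similar amount, and the log2 fold change was -0.76 (SE 0.105, edgeR adjusted p = 0.0224). The other genes of this complex, POLA2, PRIM1 and PRIM2, had log2 fold changes of -0.73, -0.57 and -0.45. Their edgeR adjusted p ranged from 0.115 to 0.232, and in DESeq2 it was 0.0429, 0.180 and 0.106. Without PRMT3-KD library 1 their log2 fold changes were -1.17, -1.04 and -0.66, and without library 2 they were -0.39, -0.22 and -0.27.

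The lowest value of the group was that of POLD1, the catalytic subunit of polymerase delta. It was at 82.3 and 87.2 CPM in Ctrl and at 53.9 and 33.2 CPM in PRMT3-KD libraries, a log2 fold change of -0.96 (SE 0.246, edgeR adjusted p = 0.0635). The accessory subunit POLD2 was at 229 and 230 CPM in Ctrl and at 263 and 209 CPM in PRMT3-KD libraries. One of its PRMT3-KD values was above and the other below Ctrl, and the log2 fold change was 0.04 (adjusted p = 0.830, edgeR). POLD3 had a log2 fold change of -0.39 (adjusted p = 0.290, edgeR). Of polymerase epsilon, POLE and POLE2 had log2 fold changes of -0.72 and -0.52 and edgeR adjusted p of 0.0638 and 0.154. In DESeq2 their adjusted p was 0.00396 and 0.193.

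The clamp, its loader and the enzymes that process new strands held 1 called gene among 13. That is 7.69% by edgeR, near the 5.97% of all genes tested that it called lower. DESeq2 also called PCNA, RFC3, RFC5, LIG1 and DNA2 lower, where it called 7.53% of all genes tested lower. The low share in this group thus holds for edgeR only. FEN1 (ENSG00000168496, chr11:61560383-61564710, GRCh37), the nuclease that trims flaps between Okazaki fragments, was at 90.4 and 88.9 CPM in Ctrl and at 44.6 and 25.6 CPM in PRMT3-KD libraries. It had the lowest log2 fold change of all 56 members, -1.36 (SE 0.277, edgeR adjusted p = 0.0423), and on library totals only its adjusted p was 0.0540. LIG1, the ligase of the same step, had a log2 fold change of -1.14 (adjusted p = 0.0754, edgeR, and 0.000945, DESeq2).

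PCNA (ENSG00000132646, chr20:5095599-5107272, GRCh37), the sliding clamp, was at 173 CPM in both Ctrl libraries and at 117 and 82.2 CPM in PRMT3-KD libraries. Its groups did not overlap, and its log2 fold change of -0.80 (standard error 0.183) had an adjusted p of 0.0520 in edgeR and 0.000834 in DESeq2. The nuclease DNA2 was at 30.6 and 29.99 CPM in Ctrl and at 22.3 and 17.6 CPM in PRMT3-KD libraries, with adjusted p of 0.0548 in edgeR and 0.0168 in DESeq2. In the clamp loader, RFC2 to RFC5 had log2 fold changes from -0.62 to -0.49 and the large subunit RFC1 had -0.08. The single-strand binding protein RPA showed a similar order, with -0.50 for RPA3, -0.33 for RPA2 and -0.06 for RPA1. Without PRMT3-KD library 1 these were -0.72, -0.73 and -0.25, and without library 2 they were -0.31, -0.01 and 0.10. The gap between RPA3 and RPA2 thus depended on the library used. RPA1 was at 158 and 156 CPM in Ctrl and at 169 and 132 CPM in PRMT3-KD libraries, so its groups overlapped. RNASEH2A, which removes RNA from DNA, had a log2 fold change of -0.55 (adjusted p = 0.173, edgeR).

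Of the 4 fork protection genes, 1 was called, where 5.97% of all genes tested were called lower. TIMELESS was at 95.5 and 92.4 CPM in Ctrl and at 55.6 and 44.1 CPM in PRMT3-KD libraries, a log2 fold change of -0.91 (SE 0.132, edgeR adjusted p = 0.0240). Its protein partner TIPIN was at 19.3 and 18.3 CPM in Ctrl and at 21.8 and 12.7 CPM in PRMT3-KD libraries. TIMELESS was lower in both PRMT3-KD libraries, whereas TIPIN lay on both sides of Ctrl with a log2 fold change of -0.13 (adjusted p = 0.773, edgeR). Reads of TIPIN may be shared with RPL9P25, which covers 21.1% of its exon length on the same strand. CLSPN, the claspin gene, was at 79.5 and 82.4 CPM in Ctrl and at 49.4 and 29.1 CPM in PRMT3-KD libraries, a log2 fold change of -1.05 (adjusted p = 0.0625, edgeR). WDHD1 had a log2 fold change of -0.39 (adjusted p = 0.234, edgeR).

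Chromatin assembly had 3 of 5 genes called, where 5.97% of all genes tested were called lower. Both PRMT3-KD libraries were below both Ctrl libraries for each of the 5, a pattern found in 33.8% of all genes tested. UHRF1 (ENSG00000276043, chr19:4903092-4962165, GRCh37), which recognizes hemimethylated DNA behind the fork, was at 232 and 230 CPM in Ctrl and at 120 and 76.6 CPM in PRMT3-KD libraries. Library 2 was at 33.2% of the Ctrl mean, and the log2 fold change was -1.23 (SE 0.228, edgeR adjusted p = 0.0357). The maintenance methyltransferase DNMT1, which UHRF1 recruits, was at 368 and 365 CPM in Ctrl and at 254 and 226 CPM in PRMT3-KD libraries, a log2 fold change of -0.61 (SE 0.0868, edgeR adjusted p = 0.0232). CHAF1A, the large subunit of the histone chaperone CAF-1, was at 110 and 106 CPM in Ctrl and at 68.9 and 50.02 CPM in PRMT3-KD libraries, a log2 fold change of -0.86 (adjusted p = 0.0401, edgeR, and 0.0562 on library totals only). Its partner CHAF1B was at 41.0 and 38.2 CPM in Ctrl and at 28.3 and 22.0 CPM in PRMT3-KD libraries, with adjusted p of 0.0515 in edgeR and 0.00738 in DESeq2. The histone chaperone ASF1B was at 101 CPM in both Ctrl libraries and at 81.6 and 50.9 CPM in PRMT3-KD libraries, a log2 fold change of -0.61 (adjusted p = 0.143, edgeR).

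Levels of the members differed widely in Ctrl cells. Per kilobase of the canonical transcript, the mean Ctrl level was highest for MCM7 at 157 CPM per kb, POLD2 at 142 and PCNA at 136. It was lowest for ORC4 at 4.08 CPM per kb, MCM10 at 4.61 and POLE2 at 5.81. Every member had at least 162 counts in each library. Annotated pseudogenes of the same name exist for PCNA (3), DBF4 (3), RPA2 (3) and RPA3 (2), and for FEN1, ORC1, POLD2, RFC3, RFC5 and TIPIN (1 each), with which reads could have been shared.

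Other replication factors and mitotic genes were set beside the members. Of 35 other replication factors, 10 were called lower and 0 higher by edgeR, with a median log2 fold change of -0.46, where 5.97% of all genes tested were called lower and 4.97% higher. The called genes with the largest changes were PIF1 at -1.31, RTEL1 at -1.16, CHTF8 at -1.12 and DONSON at -1.04, with adjusted p from 0.0142 to 0.0335 (edgeR). Of 30 mitotic genes, 19 were called lower and 0 higher, with a median of -0.73. NUSAP1, ESPL1, AURKB and KIF11 led them with log2 fold changes of -1.71, -1.35, -1.29 and -1.23, and adjusted p from 0.0154 to 0.0192 (edgeR). The gap between the PRMT3-KD libraries was wider in the members, with a median log2 difference of library 2 from library 1 of -0.53, against -0.29 in mitotic genes and -0.24 in other replication factors. Without Ctrl library 1 edgeR called 0 genes of either list lower, and without Ctrl library 2 it called 0 other replication factors and 1 mitotic gene. Without PRMT3-KD library 1 these counts were 17 and 28, where 12.6% of all genes tested were called lower. Without PRMT3-KD library 2 they were 11 and 17, where 12.5% of all genes tested were. These differences between lists were not tested. Without Ctrl library 1 or without Ctrl library 2, almost all called genes, inside or outside these lists, lost their edgeR call.

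**Figure D3:**
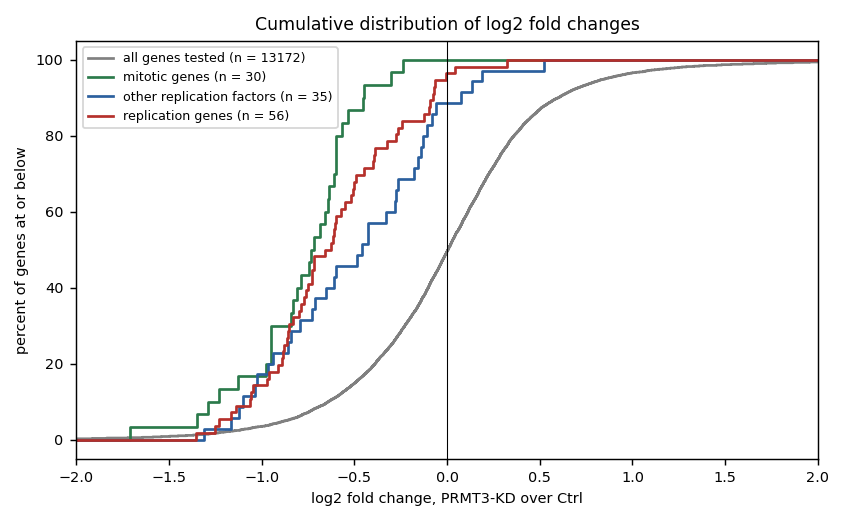
Cumulative percent of genes at or below each log2 fold change, for all 13172 genes tested, 56 replication genes, 35 other replication factors and 30 mitotic genes. The medians are 0.01, -0.64, -0.46 and -0.73, and 54 of the 56 replication genes lie left of 0.

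To describe the letters upstream of the members, promoters of 300 bases, from 250 bases before to 50 bases after each start, were read from RefSeq (GRCh38.p14). Of the 56 members, 49 had an entry; MCM4, MCM5, GINS4, DNA2, POLD3, RPA2 and RPA3 had none in the table used. Letters of the E2F motif (TTTCCCGC, TTTCGCGC, TTTGGCGC or TTTGCCGC, on either strand) were present in 3.31% of all 35116 promoters and in 39.7% of the 63 member promoters. Counted by gene over all its starts, they were present in 6.60% of 10103 genes tested and in 24 of the 49 members, or 49.0%. The CHR letters TTTGAA were in 15.2% of all promoters and 3.17% of member promoters. By gene they were in 14.2% of genes tested and 4.08% of members, namely ASF1B and DBF4. The CCAAT box, CCAAT, was in 34.6% of all promoters and 57.1% of member promoters. By gene it was in 43.8% of genes tested and in 30 of the 49 members, or 61.2%.

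**Figure D4:**
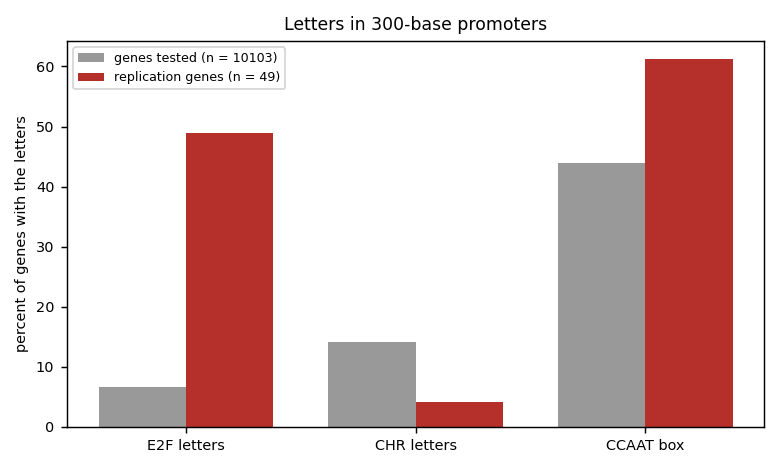
Percent of genes with each set of letters in a 300-base promoter, for 10103 genes tested in grey and 49 replication genes in red. E2F letters are in 6.60% and 49.0%, CHR letters in 14.2% and 4.08%, and the CCAAT box in 43.8% and 61.2%.

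Called members occurred both with and without the E2F letters. Of the 24 members that hold them, 7 were called lower (29.2%), and of the 25 without them, 4 were (16.0%), with median log2 fold changes of -0.75 and -0.55. Over all genes tested, 9.15% of those with the letters and 5.81% of those without were called lower. These differences were not tested. GMNN, ORC3 and TIPIN hold the letters at log2 fold changes of -0.09, -0.10 and -0.13, whereas FEN1, MCM10, TIMELESS and CHAF1A were called lower without them. A match is a description of the letters only and shows no binding.

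The promoters of 8 members are printed below the positions given here, chosen after their values were seen to show both cases, with E2F letters in capitals and the first start that holds them used. MCM6 (chr2:135876394-135876693, minus strand), MCM7 (chr7:100101348-100101647, minus), POLA1 (chrX:24693668-24693967, plus) and UHRF1 (chr19:4909251-4909550, plus) were called lower and hold the letters. FEN1 (chr11:61792661-61792960, plus) was called lower and ORC2 (chr2:200963611-200963910, minus) was near 0, both without the letters. GMNN (chr6:24775163-24775462, plus) and ORC3 (chr6:87589885-87590184, plus) were near 0 and hold the letters. In MCM6, TTTGGCGC and the reverse complement of TTTCGCGC overlap, so 4 matches stand in a pair of capital runs.
MCM6: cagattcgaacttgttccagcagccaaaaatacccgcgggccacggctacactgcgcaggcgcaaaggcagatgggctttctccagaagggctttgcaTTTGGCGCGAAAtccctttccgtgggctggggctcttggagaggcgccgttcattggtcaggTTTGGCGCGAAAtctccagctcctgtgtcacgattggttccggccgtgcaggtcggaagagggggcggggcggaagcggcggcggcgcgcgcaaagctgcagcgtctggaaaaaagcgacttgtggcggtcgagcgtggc
MCM7: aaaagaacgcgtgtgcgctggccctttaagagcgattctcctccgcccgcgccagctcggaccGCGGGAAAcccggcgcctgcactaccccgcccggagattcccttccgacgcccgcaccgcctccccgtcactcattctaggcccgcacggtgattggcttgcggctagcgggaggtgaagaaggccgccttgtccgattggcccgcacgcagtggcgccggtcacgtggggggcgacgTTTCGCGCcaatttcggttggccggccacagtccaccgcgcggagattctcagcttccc
POLA1: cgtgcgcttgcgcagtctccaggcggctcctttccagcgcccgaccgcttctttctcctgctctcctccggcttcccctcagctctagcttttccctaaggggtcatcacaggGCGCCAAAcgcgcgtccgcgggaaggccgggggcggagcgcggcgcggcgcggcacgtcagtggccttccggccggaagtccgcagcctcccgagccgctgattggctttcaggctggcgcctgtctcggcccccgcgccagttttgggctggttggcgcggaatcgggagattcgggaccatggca
UHRF1: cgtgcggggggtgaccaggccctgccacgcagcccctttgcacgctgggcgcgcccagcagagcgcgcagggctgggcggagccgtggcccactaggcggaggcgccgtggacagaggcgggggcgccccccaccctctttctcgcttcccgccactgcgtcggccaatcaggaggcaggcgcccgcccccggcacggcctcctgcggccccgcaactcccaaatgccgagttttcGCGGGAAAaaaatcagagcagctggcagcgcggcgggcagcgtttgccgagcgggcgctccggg
FEN1: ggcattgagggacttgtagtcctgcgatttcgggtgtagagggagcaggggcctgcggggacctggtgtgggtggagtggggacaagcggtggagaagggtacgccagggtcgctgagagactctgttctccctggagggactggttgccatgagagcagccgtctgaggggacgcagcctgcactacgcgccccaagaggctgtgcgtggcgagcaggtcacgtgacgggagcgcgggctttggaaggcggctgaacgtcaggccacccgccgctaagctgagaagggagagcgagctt
ORC2: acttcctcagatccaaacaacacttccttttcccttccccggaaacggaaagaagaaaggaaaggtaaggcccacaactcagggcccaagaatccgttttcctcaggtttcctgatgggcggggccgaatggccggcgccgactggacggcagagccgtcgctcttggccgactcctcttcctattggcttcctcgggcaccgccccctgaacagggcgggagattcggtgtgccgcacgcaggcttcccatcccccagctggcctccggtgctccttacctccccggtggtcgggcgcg
GMNN: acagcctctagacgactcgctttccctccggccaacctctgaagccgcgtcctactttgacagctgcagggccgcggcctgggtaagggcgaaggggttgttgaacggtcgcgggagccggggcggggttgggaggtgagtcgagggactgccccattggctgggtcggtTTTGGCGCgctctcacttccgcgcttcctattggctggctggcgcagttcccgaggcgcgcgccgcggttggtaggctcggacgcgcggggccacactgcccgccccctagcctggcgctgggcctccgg
ORC3: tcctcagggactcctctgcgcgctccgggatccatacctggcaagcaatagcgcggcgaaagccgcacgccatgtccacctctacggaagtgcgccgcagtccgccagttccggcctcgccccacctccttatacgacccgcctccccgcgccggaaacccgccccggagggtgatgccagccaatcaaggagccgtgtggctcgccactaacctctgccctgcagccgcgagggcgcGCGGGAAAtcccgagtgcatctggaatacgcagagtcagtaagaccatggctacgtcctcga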

How the data were processed

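RNA was sequenced from 2 Ctrl and 2 PRMT3-KD libraries of U251 cells. The counts per gene are whole numbers that the authors deposited, made per the study's methods by alignment to hg19 with TopHat and gene read counts from Cufflinks; CASAVA and DESeq2 also stand in the submitters' processing notes. Versions, annotation and strand are not given in the sources used here. From 15576 entries, 1 duplicate was removed, leaving 15575 genes, 99.9% of them matched to GENCODE 44 on GRCh37. Groups came from the sample labels.

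Counts were tested in R 4.3.3 with edgeR 4.0.16 (filterByExpr with minimum count 10 and minimum total 15, TMM factors from 0.955 to 1.02, glmQLFit and glmQLFTest), with Benjamini-Hochberg adjustment over 13172 genes. Standard errors were derived as the absolute log2 fold change over the root of F. The chi-square between libraries used genes with a mean of at least 5 counts, scaled by library totals. Other settings tried were DESeq2 1.42.0, which the study's methods name, limma 3.58.1 voom with group weights, upper-quartile factors, library totals, DESeq2 size factors in edgeR, filters of at least 1 count in any library or 10 in all libraries, a block on replicate number, no fold threshold or a 2-fold one, and leaving out each library. The fits were tested on simulated data, in which all genes of a group had the same spread. With spread as unequal as between these groups, the edgeR test found none of the planted changes. DESeq2, limma-voom and the block each found only a part of them. With equal spread in both groups, each found most. In the real data spread differs between genes and the edgeR test called 1441 genes, so the simulation does not give its power here. The smallest p that exact permutation allows for 2 against 2 libraries is 0.333. Summaries and figures used Python 3.11.15, pandas 2.3.3 and matplotlib 3.10.9.

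The members and gene lists were chosen with earlier results of these data known. Values per library are given for members called, the lowest and highest of each role, PCNA and MCM7, and up to 6 members whose call changes under DESeq2 by lowest p; of other lists, the 4 called genes with the largest changes are named. Values per library of GMNN and ORC5 were added after their values were seen.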

Additional observations from a re-analysis of the deposited data

How the results depend on the processing

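The number of members called lower, 12 in edgeR, was 33 with DESeq2, 34 with limma-voom with group weights and 4 at over 2-fold. It ran from 8 to 14 under the other scalings and filters, where 4.94% to 6.37% of all genes tested were called lower. All genes called, higher or lower, numbered 1441, and 2278 without a fold threshold and 512 at over 2-fold. The share of all genes called lower at over 2-fold is not given here. Leaving out each library in turn gave from 0 to 3068 genes called, from 0 to 45 members called lower, from 0 to 17 other replication factors and from 0 to 28 mitotic genes. With a group left at 1 library, that library is assumed to vary like the other group. PRMT3 ranged from -3.61 to -2.68 in log2 fold change over these fits and lost its call without either Ctrl library. The members' median ranged from -0.94 to -0.43. No member changed sign under another scaling, filter, tool or block, but 7 did when a PRMT3-KD library was left out. Without PRMT3-KD library 2, ORC3 was 0.0462, ORC5 0.23, GMNN 0.17, GINS1 0.0212, RPA1 0.10 and TIPIN 0.21, and without PRMT3-KD library 1, POLD2 was -0.13. In these fits the ranges were -0.26 to 0.05, -0.29 to 0.23, -0.41 to 0.17, -0.62 to 0.02, -0.25 to 0.10, -0.57 to 0.21 and, for POLD2, -0.13 to 0.20. The cause was not tested. Depth, from 24804250 to 29756313 counts per library, limits genes with few counts most.

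With the replicate number as a replicate block, 25 members were called lower, or 44.6%, where 6.08% of all genes tested were called lower. Higher and lower calls together numbered 1464. The labels do not say whether equal numbers pair the samples. Across genes, the differences between libraries 1 and 2 of each group had a correlation of 0.0379, and genes are not independent replicates. This correlation cannot settle the pairing, because the spread beyond counting error was only 0.0105 in Ctrl, against 0.210 in PRMT3-KD.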

Other observations

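Genes of the E2F and RB families, looked at after the members' values were seen, did not move as 1 group. E2F2 was at 25.7 CPM in both Ctrl libraries and at 5.39 and 4.15 CPM in PRMT3-KD libraries, a log2 fold change of -2.43 (SE 0.161, edgeR adjusted p = 0.0140). E2F8 was at 23.1 and 19.9 CPM in Ctrl and at 8.03 and 6.37 CPM in PRMT3-KD libraries, a log2 fold change of -1.58 (adjusted p = 0.0182, edgeR). E2F3 had a log2 fold change of -0.61 (adjusted p = 0.0198, edgeR), and E2F1 of -0.95 (adjusted p = 0.0587, edgeR). Without Ctrl library 1 the edgeR adjusted p of E2F2, E2F8 and E2F3 was 0.0963, 0.1504 and 0.281, and these calls were lost. Without Ctrl library 2 the edgeR adjusted p was 0.0484, 0.0755 and 0.266, and only E2F2 of these 3 was called. E2F4 and RBL1 had both PRMT3-KD libraries below both Ctrl libraries but were not called. Their log2 fold changes were -0.49 and -0.56 (edgeR adjusted p = 0.0319 and 0.0519). E2F6, E2F7, RB1 and RBL2 had log2 fold changes of 0.02, 0.05, -0.05 and -0.04. Without PRMT3-KD library 1 these were -0.15, -0.36, -0.05 and 0.05, and without PRMT3-KD library 2 they were 0.17, 0.36, -0.06 and -0.14. Of the partners of E2F, TFDP1 had -0.20 and TFDP2 had 0.57 (edgeR adjusted p = 0.204 and 0.0324), the latter under the 1.5-fold threshold. E2F5 was at 12.4 and 12.2 CPM in Ctrl and at 17.3 and 21.9 CPM in PRMT3-KD libraries, higher in library 2 than in library 1, an order that 0 of the 56 members had. Its log2 fold change was 0.67 (edgeR adjusted p = 0.0501).

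The letters CAGCTCA in 3′ UTRs came from an earlier scan of these same libraries, so they are not independent of them. They occur in the canonical 3′ UTR of 5 of 55 members, CHAF1B, CLSPN, GINS2, MCM8 and TIMELESS, or 9.09%, against 17.5% of 12616 genes tested with a 3′ UTR of at least 50 bases. Their median log2 fold change was -0.91, against -0.61 for the 50 members without the letters. Over all genes tested it was -0.11 with and 0.03 without them. E2F2 and TFDP2 carry 1 copy each, at log2 fold changes of -2.43 and 0.57.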
